A study of Mus musculus with 4 samples.

Results

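Broad peaks of ATF4 pull-down signal, of 1500 bp or more, are described here in heart ventricle of mice aged 4 weeks. ATF4 is a basic leucine zipper transcription factor of the integrated stress response. The members are the peaks of the series-wide list, named as an IDR set, that were at least 1500 bp wide, lay on chromosomes 1 to 19 and overlapped a peak of both replicate lists by at least 1 bp. There were 702 of them among 41639 series-wide peaks, and they covered 1.39 Mb of the 22.1 Mb in that list. A further 19 peaks of this width on the same chromosomes were not members, 18 of them with no replicate peak and 1 with a peak in a single replicate, and 15 more lay on chromosomes X, Y and M. The members were chosen by their measured width, so width and fold, which come from the same signal, are given as a description. The peaks were set against the 17738 peaks of 300 to 600 bp that met the same conditions on chromosome and replicates.

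The study has 2 ATF4 pull-down samples and 2 input samples of the same tissue and age; input values are not analysed here. Chromatin was crosslinked, sheared and caught on streptavidin beads, while AAV stands in the antibody field, and no genotype, vector, promoter or strain is explained. The labels do not say whether the samples came from separate animals, so an SD over n = 2 measures only the spread between these samples. The labelled tissue was checked through heart muscle genes: 11 of 24 sarcomere genes had a broad peak within the gene or up to 1 kb from it, against 2.79% of all protein-coding genes. Of the markers of other cell types 1 of 15 fibroblast, 0 of 16 immune, 0 of 15 endothelial, 0 of 11 smooth muscle and pericyte and 0 of 17 neuronal genes had one, counts too small to tell from that background. Peaks of 300 to 600 bp did not set sarcomere genes apart from fibroblast markers. Such a peak lay in or within 1 kb of 14 of 24 sarcomere (58.3%) and 8 of 15 fibroblast genes (53.3%), against 30.2% of all genes. For the other lists it was 4 of 11 smooth muscle and pericyte, 3 of 15 endothelial, 4 of 17 neuronal and 1 of 16 immune genes. Peak lists show where signal lies and not how much RNA a gene makes.

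ATF4 binds DNA as a dimer, often with a C/EBP partner at composite elements of genes for amino acid supply, and with other leucine zipper proteins at cAMP response elements. A transcription factor bound at a single short element usually gives a narrow peak about as wide as the sheared fragments. A wide peak can hold several sites, a stretch of open chromatin or a transcribed region, and its width alone does not tell these apart. Fold here is the pile-up of fragments over a constant background in each replicate, so no local input level was divided out, and a peak by itself does not show binding.

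Promoter sequences of 6 genes with a broad peak at the start are shown because they carry the contrast described further on, between promoters with and without a short element known for ATF4 or its relatives. Each runs over the 250 bases before the start and the 50 from it on, along the gene's own strand (RefSeq, GRCm38.p6), and capitals mark a match to TGATGNAA or TGACGTCA on either strand.
Got1: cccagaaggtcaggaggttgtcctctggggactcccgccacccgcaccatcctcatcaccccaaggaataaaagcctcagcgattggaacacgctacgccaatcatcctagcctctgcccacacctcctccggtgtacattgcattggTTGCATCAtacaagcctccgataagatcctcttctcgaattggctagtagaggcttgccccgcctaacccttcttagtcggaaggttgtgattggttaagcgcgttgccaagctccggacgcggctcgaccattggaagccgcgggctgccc
Ppp1r15a: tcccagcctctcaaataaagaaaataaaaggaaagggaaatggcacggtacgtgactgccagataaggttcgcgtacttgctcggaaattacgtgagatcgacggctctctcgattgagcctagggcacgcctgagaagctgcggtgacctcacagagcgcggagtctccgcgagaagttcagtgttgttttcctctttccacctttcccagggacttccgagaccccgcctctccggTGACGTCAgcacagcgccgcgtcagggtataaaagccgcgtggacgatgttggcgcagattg
Dusp1: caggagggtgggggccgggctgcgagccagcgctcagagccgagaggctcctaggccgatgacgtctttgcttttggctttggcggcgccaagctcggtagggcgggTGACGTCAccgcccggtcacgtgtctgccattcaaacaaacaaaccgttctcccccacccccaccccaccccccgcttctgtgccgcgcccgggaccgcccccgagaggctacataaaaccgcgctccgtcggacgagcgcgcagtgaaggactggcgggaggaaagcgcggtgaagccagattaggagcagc
Ogdh: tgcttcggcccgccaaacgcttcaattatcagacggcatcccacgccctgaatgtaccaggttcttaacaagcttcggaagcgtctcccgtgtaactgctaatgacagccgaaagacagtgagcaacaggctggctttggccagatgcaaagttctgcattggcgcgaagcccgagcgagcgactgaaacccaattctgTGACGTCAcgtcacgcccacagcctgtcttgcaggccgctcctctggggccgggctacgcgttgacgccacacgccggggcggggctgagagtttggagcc
Atf4: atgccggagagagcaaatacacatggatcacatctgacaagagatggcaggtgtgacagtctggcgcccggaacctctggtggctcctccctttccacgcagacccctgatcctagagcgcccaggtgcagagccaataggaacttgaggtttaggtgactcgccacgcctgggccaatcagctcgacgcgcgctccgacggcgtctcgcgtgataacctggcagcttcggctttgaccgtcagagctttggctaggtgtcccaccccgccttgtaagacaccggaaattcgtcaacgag
Tnni3: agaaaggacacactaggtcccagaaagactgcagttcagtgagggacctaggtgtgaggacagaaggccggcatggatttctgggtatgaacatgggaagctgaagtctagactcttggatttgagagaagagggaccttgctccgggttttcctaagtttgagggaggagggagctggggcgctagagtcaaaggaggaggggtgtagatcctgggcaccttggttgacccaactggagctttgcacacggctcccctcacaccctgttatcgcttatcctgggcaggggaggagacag
All 300 bases of each lay inside a broad peak. Got1 (chr19:43524556-43524855, minus strand), which encodes the cytosolic aspartate aminotransferase, has its TGATGNAA match at position -102, counted from the start, read as TTGCATCA. Ppp1r15a (chr7:45526219-45526518, minus strand), whose product directs dephosphorylation of eIF2 alpha, has TGACGTCA at -12. Dusp1 (chr17:26508423-26508722, minus strand), a phosphatase gene of the immediate early response, has it at -143, and Ogdh (chr11:6291347-6291646, plus strand), of the citric acid cycle, at -51. Atf4 (chr15:80254934-80255233, plus strand) and Tnni3 (chr7:4522479-4522778, minus strand), which encodes cardiac troponin I, hold neither in this window.

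The broad peaks had a median width of 1760.5 bp and quartiles of 1614 and 2071 bp. Of the 702 peaks, 503 were at least 1500 but under 2000 bp wide, 165 at least 2000 but under 3000 bp, 28 at least 3000 but under 5000 bp, and 6 were 5000 bp or wider. The threshold cut through a continuous range. Just inside it lay a peak in Rnd3 of 1500 bp with folds of 15.5 in replicate 1 and 13.3 in replicate 2, and a peak of 1501 bp at the starts of Hnrnpk and Rmi1 with 17.5 and 15.5. The other 3 nearest inside lay in Gramd3 with 10 and 9.75, in Synj2 with 45.5 and 41.2 and outside genes near 9230019H11Rik with 34.5 and 36.8. Just outside it lay a peak in Dym of 1499 bp with folds of 32.0 and 34.6, and a peak of 1498 bp at the start of Ppm1k with 24.0 and 27.5, and the other 3 nearest outside were at Bop1 with 30.5 and 34.6, Ndufb4 with 20.0 and 26.2 and Ciart with 13.5 and 16.4. Median fold over the members was 18.5 in replicate 1 and 19.1 in replicate 2, and over the 300 to 600 bp peaks it was 12 and 12.9. Shared peaks were also grouped by the deposited series-wide fold. Of those of 30-fold or more 6.16% were broad (214 of 3472), against 0.273% of those under 10-fold (19 of 6960). Among the broad peaks themselves width and fold were only loosely related, with a Spearman correlation of 0.112 in replicate 1 and 0.122 in replicate 2 over 702 peaks that share their libraries.

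Peaks of both replicates each covered at least 50% of the width in 684 of the 702 members (97.4%), but they often divided it differently. The peaks of replicate 1 covered a median of 91.0% of a broad peak and those of replicate 2 covered 92.8%. A single peak in each replicate lay under 228 broad peaks (32.5%), against 17563 of the 300 to 600 bp peaks (99.0%). In 187 of the 702 (26.6%) both replicates had a peak that was itself 1500 bp or wider, in 541 (77.1%) at least 1 of them did, and in the other 161 (22.9%) neither did. In these 161 the series-wide peak was wider than any replicate peak under it. The strongest summits of both replicates lay a median of 28 bp apart under broad peaks and 23 bp apart under 300 to 600 bp peaks, and they lay within 100 bp of each other in 75.9% and 93.5%. Folds of both replicates ran together over the members (Spearman correlation 0.916 over 702 peaks, a description), and 337 peaks had the higher fold in replicate 1 and 365 in replicate 2.

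**Figure D1:**
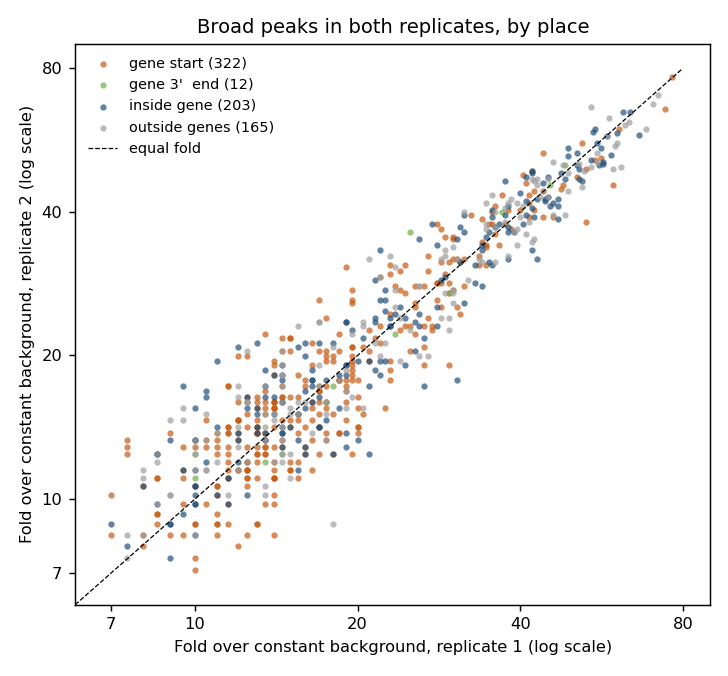
Each point is 1 of the 702 broad peaks, with its highest fold over a constant background in replicate 1 on the x axis and in replicate 2 on the y axis, both on log scales, coloured by the place of the peak midpoint. The points lie along the line of equal fold, and the highest point, at 76.5 and 76.7, is a gene start. By the series-wide fold, which is not plotted, 30 or more was reached by 19.9% at gene starts, 37.9% inside genes and 41.8% outside genes.

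Gene starts were the place where broad and shorter peaks differed most. A peak was placed at a start if its midpoint lay within 1 kb of a start of a protein-coding gene; the strand was known for 17491 of 21896 gene models, and for the others either end of the model counted. Of the broad peaks 322 (45.9%, exact 95% interval 42.1% to 49.6%) lay at a gene start, against 2592 of the 300 to 600 bp peaks (14.6%, 14.1% to 15.1%). A further 203 broad peaks (28.9%) lay inside a gene away from its ends, against 47.9% of the 300 to 600 bp peaks. Outside genes lay 165 (23.5%), against 36.2%. Throughout, inside and outside genes refer to protein-coding gene models, so a peak outside genes can lie in a non-coding RNA gene. The H19 peak described further on is such a case. Gene 3′ ends of known strand held 12 broad peaks (1.71%), against 1.24%. Intervals cover counting error only, and no p-value is given, since peaks of 1 list are not replicates.

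The same contrast was present in each sample on its own. Among the 410 peaks of replicate 1 that were 1500 bp or wider 47.3% lay at a gene start, against 17.4% of its 300 to 600 bp peaks. In replicate 2 the values were 45% of 429 broad peaks and 16.6% of the 300 to 600 bp peaks. The difference was 29.1 ± 1.06 percentage points (mean ± SD, n = 2), so it was many times the spread between the replicates. The share inside genes was lower among broad peaks by a difference of -20.1 ± 0.310 points (mean ± SD, n = 2), and outside genes it differed by -9.30 ± 0.0675 points. The 3′ end values of -0.278 points in replicate 1 and 0.873 points in replicate 2 took opposite signs.

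The share at gene starts went up with every step of width. It was 5.94% below 300 bp, 14.6% from 300 to under 600 bp, 27.4% from 600 to under 900 bp, 35% from 900 to under 1200 bp, 38.6% from 1200 to under 1500 bp, 44.5% from 1500 to under 2000 bp and 49.2% from 2000 bp on. From 900 bp on, the intervals of neighbouring steps overlap.

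**Figure D2:**
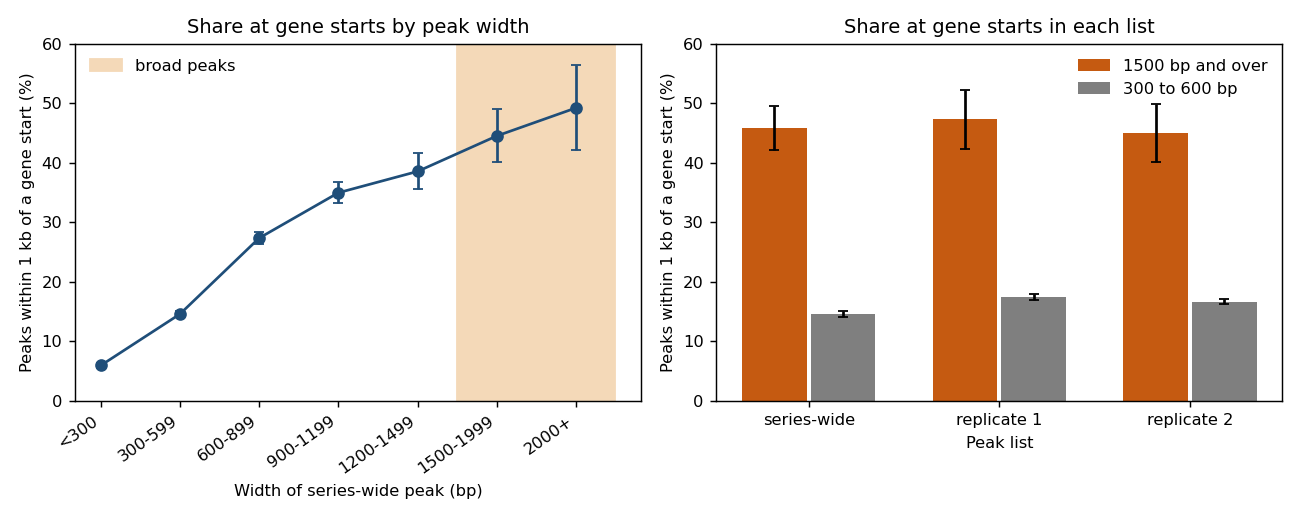
The left panel gives the share of shared series-wide peaks whose midpoint lay within 1 kb of a gene start (y axis, percent) in 7 classes of peak width (x axis, bp), with exact 95% intervals and the broad classes shaded. The right panel gives the share for peaks of 1500 bp and over and of 300 to 600 bp in the series-wide list and in each replicate list; broad peaks sit between 45% and 47.3% and the others between 14.6% and 17.4%.

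The contrast was present in every class of series-wide fold compared. Between 10-fold and 15-fold 58.9% of broad peaks lay at a start, against 17.3% of the 300 to 600 bp peaks. Of broad peaks from 15-fold to 20-fold 51.8% lay at a start, against 12.6%. From 20-fold to 30-fold it was 47.8%, against 7.80%, and from 30-fold on 29.9%, against 5.88%. Under 10-fold there were only 19 broad peaks, 9 of them at a start (47.4%, exact interval 24.4% to 71.1%), against 21.0%. In both sets the share at starts was lowest among the strongest peaks.

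Broad peaks at gene starts had lower folds than those elsewhere. Their median was 16.5 in replicate 1 and 16.4 in replicate 2. Peaks inside genes had medians of 21.5 and 21.3, and peaks outside genes 22.0 and 23.0. Series-wide folds of 30 or more were reached by 64 of 322 peaks at starts (19.9%), 77 of 203 inside genes (37.9%) and 69 of 165 outside genes (41.8%). The quartiles of the 3 places overlap widely, from 13.0 to 25 at starts and from 14.0 to 39.0 outside genes in replicate 1.

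**Figure D3:**
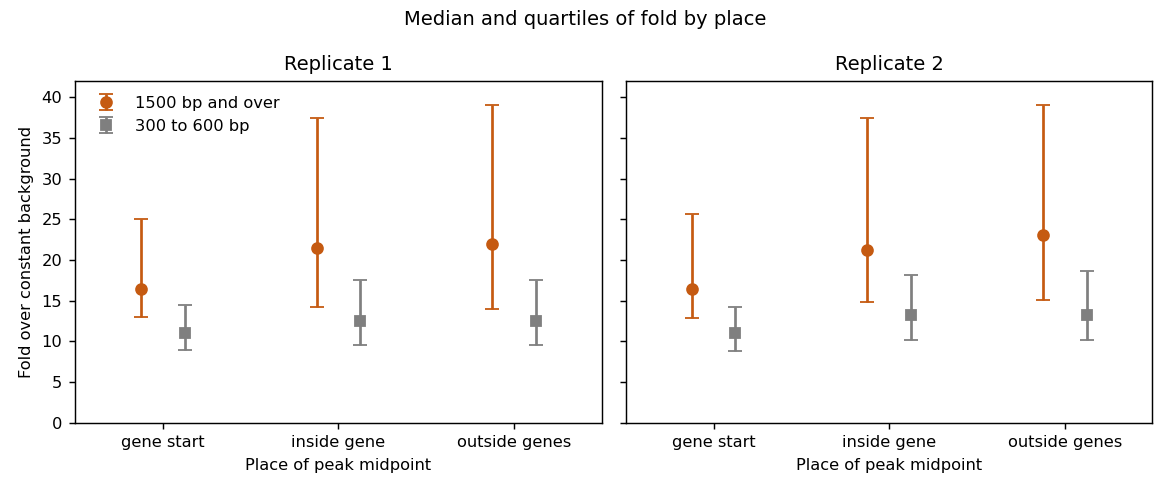
Points give the median fold over a constant background (y axis) and bars the quartiles, for peaks of 1500 bp and over and of 300 to 600 bp, by place of the midpoint (x axis), in replicate 1 (left) and replicate 2 (right). Broad peaks have their lowest median at gene starts, 16.5 in replicate 1 and 16.4 in replicate 2, and the quartiles of the places overlap.

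In the median the peaks at starts reached about as far in front of the gene as into it. In 284 broad peaks a start of known strand lay inside the peak. The peak ran a median of 877.5 bp upstream and 926.5 bp downstream of the start nearest its midpoint. More bases lay downstream in 149 of them (52.5%). Where a peak held several starts, taking the nearest to the midpoint favours even lengths. Single peaks were often uneven, with 3.42% downstream at Irf2bp2 and 97.5% at Cds2. The strongest summit lay at a median of -73 bp from the start, with quartiles at -432 and 158.5 bp, where negative positions are upstream. Starts of 2 or more genes lay within 1 kb of the midpoint at 50 of the 322 broad peaks at starts (15.5%), against 270 of 2592 peaks of 300 to 600 bp at starts (10.4%). Ddit3, which encodes the stress transcription factor CHOP, and Mbd6 shared 1 such peak.

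A broad peak lay at the start of 368 of 20661 protein-coding genes on chromosomes 1 to 19 (1.78%). Peaks of 300 to 600 bp lay at the start of 13.4% and a shared peak of any width at 35.2%. Genes with a broad peak at the start had a median length of 20.2 kb, against 23.0 kb for genes with a 300 to 600 bp peak there and 17.5 kb for all genes. Counting gene bodies with 1 kb on each side, 576 genes had a broad peak (2.79%) and 30.2% had one of 300 to 600 bp. The gene lists were read against these values and not tested.

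Immediate early genes, which respond within minutes to growth factors and stress, held broad peaks at the start of 8 of 22 (36.4%). The share over all genes was 1.78%. Jun, which encodes an AP-1 subunit that can pair with ATF proteins, had 37.5-fold in replicate 1 and 37.7-fold in replicate 2 at a peak of 2665 bp (chr4:95051451-95054115), and a second broad peak of 1636 bp in the gene with 9.0 and 13.3. The first was at the same height in both samples, whereas the second was weaker and less even. Btg2, which restrains proliferation, had a peak of 2315 bp with folds of 12 and 14.6, and Klf6, a zinc finger factor gene, one of 2262 bp with 14.0 and 12. The other members were Fosl2, Zfp36, Ier2, Dusp1 and Fos, with mean folds between 13.2 and 20.3. Peaks of 300 to 600 bp lay at the start of 5 of the 22, against 13.4% of all genes.

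Circadian clock genes held more broad than shorter peaks at the start. Broad peaks lay at the start of 6 of 18 (33.3%), and a 300 to 600 bp peak at 1 of 18. The shares over all genes were 1.78% and 13.4%. Nr1d1, which encodes the repressor REV-ERB alpha, had a peak of 2993 bp (chr11:98773645-98776637) with folds of 15.5 in replicate 1 and 15.1 in replicate 2. Bhlhe41, a repressor of the clock activators, had 19 and 16 at a peak of 2078 bp, and Per1, a core inhibitor, 17.0 and 17.3 at 1730 bp. All 3 were close to the median of broad peaks at starts. Nr1d2, Tef and Bhlhe40 completed the 6. Dbp, Nfil3 and Npas2 had a broad peak in the gene or within 1 kb of it but not at the start, which made 9 of 18 (50%), against 2.79% of all genes. The strongest of the 9 was at Npas2, a partner of the clock activator BMAL1, with 36.5 and 37.7.

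Stress response regulators held broad peaks at 5 of 18 starts (27.8%), against 1.78% of all genes: Atf4, Ddit3, Ppp1r15a, Ddit4 and Stc2. At Atf4 a peak of 2693 bp (chr15:80254824-80257516) had folds of 15.0 and 21.7, 18.4 ± 4.75 (SD, n = 2). Replicate 1 had 2 peaks under it with the same fold of 15.0, from -0.411 to 0.509 kb and from 0.593 to 2.322 kb of the gene start. Replicate 1 therefore gave no single strongest summit. The strongest summit of replicate 2 lay at 80256943, inside the gene. At Ddit3 a peak of 2545 bp (chr10:127288809-127291353) had 35.5 in replicate 1 and 37.7 in replicate 2, and this was the strongest of the 5. Ppp1r15a had 27.5 and 23.0, Ddit4, an inhibitor of mTORC1, had 26.5 and 19.1, and Stc2, which encodes a secreted glycoprotein, had 17.0 and 16. A 300 to 600 bp peak lay at 3 of the 18 starts (16.7%), close to the 13.4% of all genes. A shared peak of any width lay at 16 of the 18, against 35.2% of all genes.

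Genes of amino acid synthesis and transport held broad peaks at 5 of 23 starts (21.7%), against 1.78% of all genes. Got1 was far above the others, with 74.0 in replicate 1 and 65.6 in replicate 2 at a peak of 1550 bp (chr19:43523968-43525517), 69.8 ± 5.94 (SD, n = 2). Psat1, of serine synthesis, had 30 and 35.5 at 2050 bp. The transporter genes were lower: Slc6a9, for glycine, had 17.5 and 16, Slc7a1, for cationic amino acids, 18.0 and 15.1, and Slc38a2, for small neutral amino acids, 13.0 and 12.4. Peaks of 300 to 600 bp lay at 7 of the 23 (30.4%), against 13.4% of all genes. Of the cytosolic tRNA synthetases only Mars and Eprs among 21 had a broad peak at the start (9.52%), with mean folds of 25.1 and 18.8, while 4 had one of 300 to 600 bp.

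Sarcomere genes, which encode the contractile apparatus, had broad peaks at the start of 5 of 24 (20.8%), against 1.78% of all genes. Within the gene or up to 1 kb away 11 of 24 had one (45.8%), against 2.79%. Peaks of 300 to 600 bp also lay at the start of 5 of the 24 (20.8%), against 13.4% of all genes. Within the gene or up to 1 kb away 14 of the 24 had one of 300 to 600 bp (58.3%), against 30.2%. Tnni3 had a peak of 1954 bp at its start (chr7:4521231-4523184) with folds of 56.5 in replicate 1 and 51.9 in replicate 2. Mybpc3, which encodes cardiac myosin-binding protein C, had 53.0 and 49.2 at 2409 bp, and Ttn, the titin gene, 31.0 and 24.4 at 2944 bp. Beside Actc1, the cardiac alpha actin gene, a peak of 2766 bp (chr2:114052675-114055440) had 61.5 and 49.6. These 4 were above the median of the members in both replicates, in contrast to Myom1, an M-band gene, with 11.5 and 12 at a peak it shares with Myl12a, and Actn2, the alpha actinin gene of the Z-disc, with 12.5 and 15.5. Near Myh6, of the alpha myosin heavy chain, 3 broad peaks were counted; the one at its start was 2745 bp wide with 59.5 and 45.7, and the widest, 3410 bp with 19 and 19.1, had its midpoint in the neighbouring gene Cmtm5. At Myh7, of the beta heavy chain, the widest of 2 had folds of 9.0 and 7.54. A peak of 4109 bp outside protein-coding genes, 9.53 kb from the Myh7 start, had 52.0 and 45.2.

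The other heart lists held broad peaks both at the start and elsewhere in the gene. Among 21 genes for heart transcription factors or natriuretic peptides 5 had one in the gene or within 1 kb (23.8%), and only Gata6 at the start. The shares over all genes were 2.79% in the gene or within 1 kb and 1.78% at the start. Gata6 had 41.5 in replicate 1 and 41.7 in replicate 2 at a peak of 3201 bp (chr18:11050986-11054186). Myocd, a coactivator of serum response factor, had 54.5 and 59.0 at 1892 bp inside the gene, and Gata4 10 and 13.3 at 2359 bp; Tbx20 and Tead1 were the other members. Among 19 genes of calcium handling and ion channels Jph2 and Camk2d had a broad peak at the start (10.5%). Trdn had one inside the gene. The peak of Pln, which encodes the calcium pump inhibitor phospholamban, spanned its start, with 2665 bp upstream and 163 bp downstream. The midpoint of that peak lay more than 1 kb from the start, so it was not counted there. Jph2, a gene for junctions between membranes of the calcium release units, had 61.0 and 59.8 at 2944 bp, and Pln had 47 and 42.6 at 2829 bp. Fatty acid oxidation had 2 of 22 at the start (9.09%), Acaa2 with 30 and 35 and Hadh with 7.50 and 12.4. Ppargc1a, a coactivator of mitochondrial genes, had 2 broad peaks inside the gene, the wider with 17.5 and 17.7.

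Ribosomal protein, oxidative phosphorylation and translation initiation lists each had 0 or 1 gene with a broad peak at the start. Most of their genes had a shared peak of some width there, against 35.2% of all genes. Beside 1.78% of all genes, counts this small do not tell these lists from the background. Of 31 ribosomal protein genes 0 had a broad peak at the start or in the gene. A shared peak of some width lay at the start of 28 of the 31, against 35.2% of all genes. One of 300 to 600 bp lay at the start of 6 (19.4%), against 13.4%. Of 32 genes of oxidative phosphorylation 1 had a broad peak at the start, Atp5b with 13.0 and 8.87, and a peak of 3885 bp beside Atp5d, with 53.0 and 38.1, was centred at the start of its neighbour Midn. Of 22 genes of translation initiation 1 did, Eif3b with 9.0 and 13.7, beside 1.78% of all genes. Of 20 chromatin regulators 1 had a broad peak at the start, Brd2 with 24.0 and 22.6 at 2731 bp, but 4 (20%) had one in the gene or within 1 kb, against 2.79% of all genes. Kdm6b, a histone demethylase gene, had a peak of 3424 bp inside it with 35 and 36.3, and Hdac4, a histone deacetylase gene, one of 1620 bp with 16.5 and 17.7.

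Markers of other cell types held few broad peaks at the start. Vim, the vimentin gene, was the 1 of 15 fibroblast markers, with 8.50 in replicate 1 and 11.1 in replicate 2. None of 15 endothelial, 11 smooth muscle and pericyte, 16 immune, 17 neuronal and 20 developmental homeobox genes had one. Beside a background of 1.78% these counts say little about lists of this size. A shared peak of any width lay at the start of 7 of 15 fibroblast and 5 of 11 smooth muscle and pericyte markers. It did so at 2 of 15 endothelial, 0 of 16 immune, 0 of 17 neuronal and 1 of 20 homeobox genes, against 35.2% of all genes.

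**Figure D4:**
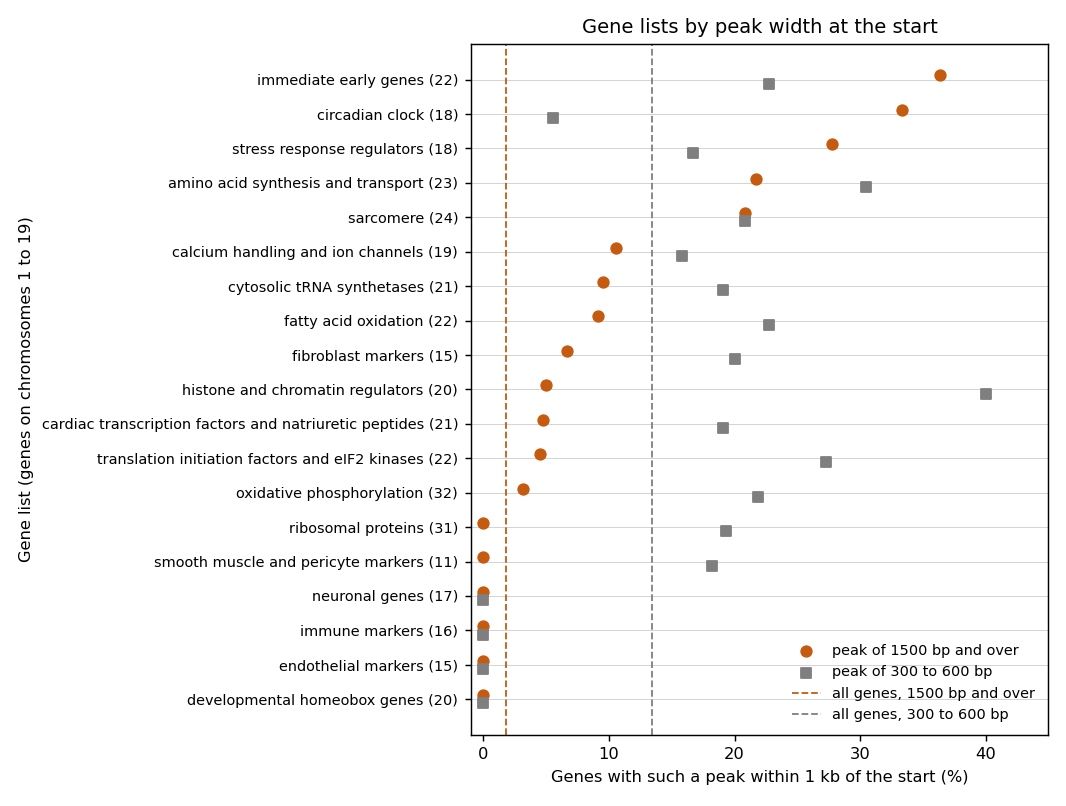
For each gene list (y axis, with its number of genes on chromosomes 1 to 19) circles give the share of genes with a peak of 1500 bp and over within 1 kb of the start and squares the share with a peak of 300 to 600 bp there (x axis, percent); dashed lines give the same shares over all protein-coding genes, 1.78% and 13.4%. Immediate early, clock and stress response genes lie furthest to the right for broad peaks. Ribosomal proteins lie at 0, as do developmental homeobox, endothelial, smooth muscle and pericyte, immune and neuronal genes.

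The widest members lay over a cluster of predicted genes, over non-coding RNA genes and over a few other genes. A stretch of chromosome 6 (47651473 to 47766710) held 15 broad peaks with 54760 bp in all, and their folds ranged from 14.5 to 58.0 with a median of 42 in replicate 1 and from 13.3 to 57.6 with a median of 47.4 in replicate 2. The widest member of all, of 13093 bp (chr6:47741367-47754459), lay there with 58.0 and 57.6. The predicted genes Gm40363, with 4 broad peaks, Gm40364, with 3, and Gm40365 and Gm36327, with 2 each, belong to this stretch, which also holds Rn4.5s, a small RNA gene; values are uncertain where such copies are near-identical. A peak of 6791 bp in Sfi1 had a series-wide fold of 39.4 but only 9.0 in replicate 1 and 8.87 in replicate 2, so its series-wide value matched neither. A peak of 4169 bp in Ppargc1b, a coactivator gene that also holds Mir378a, had 10 and 8.42.

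Broad peaks covered several genes almost from end to end. At least 80% of the gene model lay under broad peaks for 13 protein-coding genes, all of them 5000 bp or shorter, against 4569 genes of that length in the annotation. Ubb, a polyubiquitin gene, was covered at 95.4% by a peak of 3424 bp (chr11:62549696-62553119) with folds of 19.5 in replicate 1 and 19.9 in replicate 2. Its peaks in replicate 1 covered 89.7% and in replicate 2 95.4% of the gene. Eef1a1, which encodes a translation elongation factor, was covered at 97.9% by a peak of 3845 bp, but replicate 1 covered only 41.8% of it in 4 pieces and replicate 2 covered 94.1%. Gadd45a, a stress-inducible gene of growth arrest, was covered at 86.5%, with 40 and 40.3, and Atf4 at 98.8%. Lrrc10, a heart-restricted gene of the sarcomere, was covered at 83.5% by the series-wide peak with 52.0 and 55.9, by replicate 1 at 62.0% and by replicate 2 at 50.6%. The histone genes H2ac18, H2ac19 and H3c1 and the immediate early gene Ier2 lay wholly inside a broad peak; histone genes share near-identical copies and their values are uncertain.

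**Figure D5:**
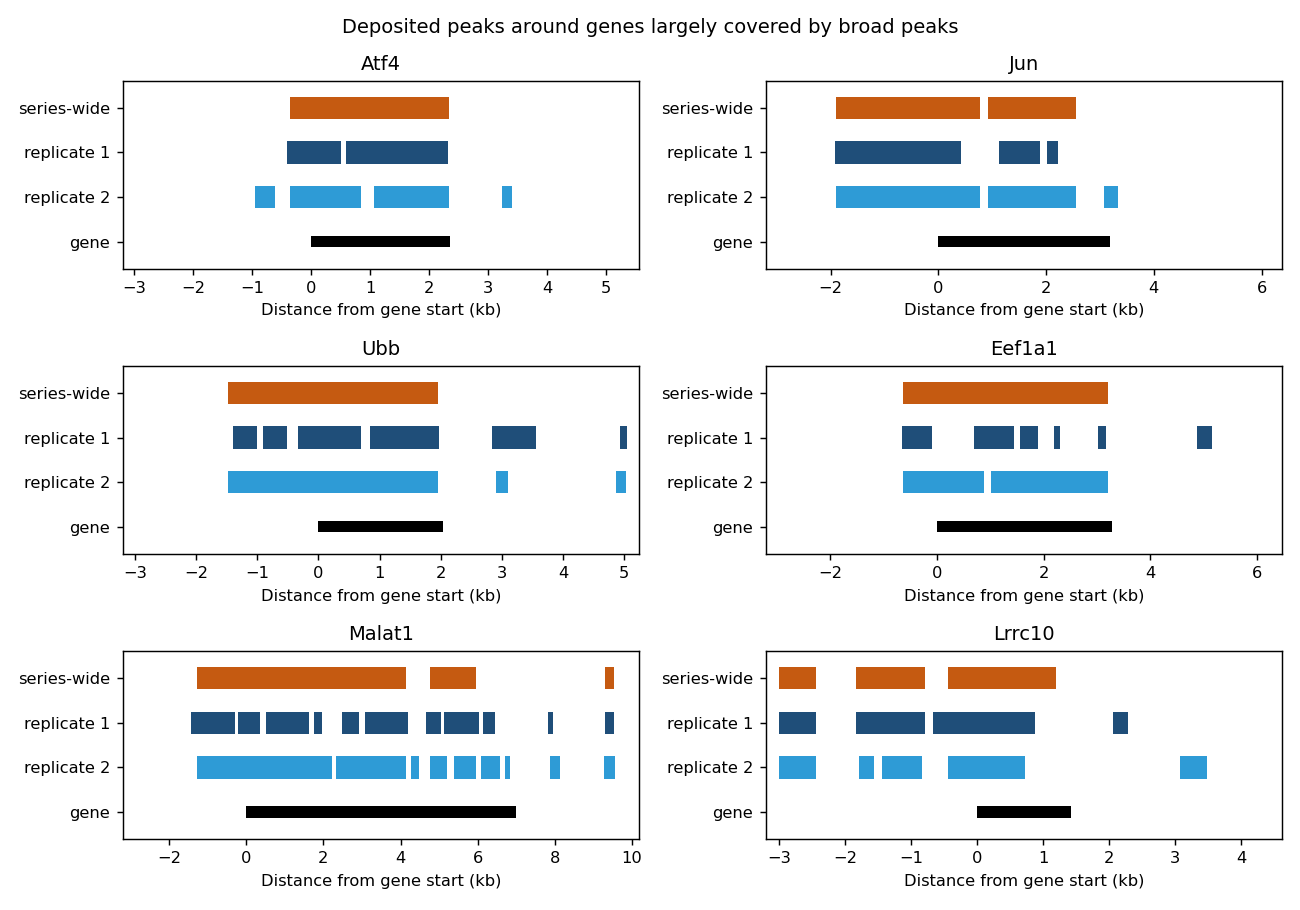
Bars show the deposited peaks of the series-wide list, replicate 1 and replicate 2 and the gene model around Atf4, Jun, Ubb, Eef1a1, Malat1 and Lrrc10, by distance from the gene start in kb, with the gene running to the right. At Ubb and Atf4 peaks of both replicates cover at least 89.3% of the model, while at Eef1a1 the pieces of replicate 1 cover 41.8%.

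Long non-coding RNA genes with broad peaks included Malat1, Neat1 and H19. Malat1, an abundant nuclear RNA, had a peak of 5410 bp (chr19:5798534-5803943) with folds of 14.5 in replicate 1 and 20.4 in replicate 2, and replicate peaks covered 70% and 84.1% of its 6983 bp. Neat1, the scaffold RNA of paraspeckles, had the second widest member of all, 10291 bp (chr19:5840296-5850586), with 23.5 and 25.3; it reached past an end of the gene model and covered 25% of it. H19, an imprinted RNA gene, was covered at 97.4% by a peak of 2548 bp (chr7:142575547-142578094) with 21.0 and 31.9, 26.5 ± 7.72 (SD, n = 2). The H19 peak holds the hairpin of Mir675, whose mature sequences are shown because they lie wholly under a broad peak (RefSeq, GRCm38.p6, minus strand; capitals mark the seed, bases 2 to 8).
mmu-miR-675-5p: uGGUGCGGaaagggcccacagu
mmu-miR-675-3p: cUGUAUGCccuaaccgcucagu
The seeds of both arms differ.

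Transfer RNA genes lay under broad peaks more often than under 300 to 600 bp peaks when both were reduced to the same 300 bp around the midpoint. Of the broad peaks 8 (1.14%, exact 95% interval 0.493% to 2.23%) held a tRNA gene there, against 27 of the 300 to 600 bp peaks (0.152%, 0.100% to 0.221%). A peak of 3081 bp on chromosome 1 (171079205 to 171082285) held 5 tRNA genes and had 12 in replicate 1 and 17.3 in replicate 2. For long non-coding RNA genes the shares were 13.7% and 11.8%, and their intervals overlap. Copies of tRNA genes are near-identical, so these values are uncertain.

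Some genes carried several broad peaks. In all 48 genes had 2 or more inside the gene or within 1 kb, and 10 had 3 or more. Arid5b, a chromatin regulator gene, and Zbtb16, which encodes a zinc finger repressor, had 4 each besides Gm40363. Those of Arid5b added up to 8926 bp and the widest had folds of 14.0 in replicate 1 and 15.1 in replicate 2, while the widest at Zbtb16 had 36 and 37.2. Mb, the myoglobin gene, Aff1, of transcription elongation, and Chd9, a chromatin remodeller gene, had 3 each. The widest at Mb was 4602 bp (chr15:77018542-77023143) with 31.0 and 31.5. Another broad peak lay within 10 kb of 91 of the 702 (13.0%), against 413 of the 17738 peaks of 300 to 600 bp (2.33%), and the median gap to the next shared peak was 2.75 kb against 7.30 kb.

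The members of highest fold lay mostly away from gene starts. Of the 10 with the highest mean fold only Mylk3 and Got1 were at a start. Mylk3, which encodes a kinase of the cardiac myosin light chain, had 76.5 in replicate 1 and 76.7 in replicate 2 (chr8:85379114-85381594). A peak of 2082 bp whose nearest start was Irf2bp2, 142 kb away, had 72.0 and 70.5, and one 9.18 kb from the start of Gm50595 had 70.5 and 67.4. A peak inside Pcdh7 had 64.0 and 64.7, one 26.3 kb from the start of Ryr2, the calcium release channel gene, had 68.5 and 59.8, and one inside Thsd7a had 62.0 and 64.7. A peak inside Adcy6, an adenylyl cyclase gene, had 66.5 and 58.1. The remaining 2 lay 39.5 kb from the start of Srrm1 and 167 kb from that of Gask1b. The nearest gene is given as a position and not as a target.

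Promoter sequence was available for 315 of the 368 genes with a broad peak at the start. Over the 372 promoters of 300 bases at broad peaks the median CpG content was 7.67 per 100 bases, against 7.0 for 2407 promoters at 300 to 600 bp peaks and 4.67 for all 20084 promoters on chromosomes 1 to 19. Among broad peaks under 15-fold the median was 8.67 over 125 promoters and among those of 30-fold or more 7.0 over 73. TGATGNAA, the core of the ATF4 and C/EBP composite element, was found on either strand in 10 promoters at broad peaks (2.69%, exact interval 1.3% to 4.89%), against 2.20% at 300 to 600 bp peaks and 3.36% of all promoters. Its longer forms TGATGCAAT and TGATGAAAT were found in 0 of the 372, in 4 and 3 at 300 to 600 bp peaks and in 36 and 41 of all promoters. TGACGTCA, the cAMP response element, was found in 15 (4.03%), against 4.65% and 2.30%. The intervals of both sets of peaks overlap for each of these elements. Some genes have several listed promoters, such as Ogdh with 6, so 1 site can be counted in more than 1 promoter. The exact intervals for promoters, here and below, do not allow for this.

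Promoters with a match did not stand together in fold. Got1, with 69.8 ± 5.94 (SD, n = 2), is the strongest of those with TGATGNAA, and the others, such as Samd4 with 22.5 ± 0.741 and Hnrnpa2b1 with 13.7 ± 1.16, lie near or below the median. With TGACGTCA the highest was Ormdl3, of sphingolipid control, with 37.6 ± 1.21, followed by Ppp1r15a with 25.3 ± 3.15 at a peak it shares with Plekha4, and the lowest was Eef2 with 10.6 ± 1.24. AGATAA, a site of GATA factors, was found in 20 promoters at broad peaks (5.38%), against 5.73% at 300 to 600 bp peaks and 9.57% of all. Of the 73 at broad peaks of 30-fold or more it was found in 11 (15.1%, exact interval 7.77% to 25.4%), and of the 125 under 15-fold in 2 (1.60%, 0.194% to 5.66%). The promoters of Mylk3, Lrrc10, Edn1, Jun and Ddit3 are among the 11. Mylk3 holds AGATAA at -100 and -50, and Edn1, the endothelin gene, which had 47.5 and 44.8, holds it read as TTATCT at 8. TGANTCA, the AP-1 element, was found in 4.57%, 4.53% and 7.06%. The MEF2 element was found in 1 of the 372, that of Jun at -33. Median GC content was 60% at broad peaks of 30-fold or more and 64.7% at those under 15-fold, and its part in these shares was not tested.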

How the data were processed

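ATF4 pull-down sequencing of heart ventricle was represented by 2 samples, and 2 input samples were not analysed here. The tools Bowtie2, MACS2 and deepTools, without version or role, and the mm10 build come per the submitters' processing notes. The replicate lists give a −log10 p-value or q-value per peak, as deposited by the authors, and the series-wide list a fold enrichment, as deposited by the authors; summit positions are in base pairs. Replicate starts were 1 bp later than series-wide starts and were aligned. Folds of replicate peaks were read where a series-wide peak had the same coordinates: all 17420 such peaks of replicate 1 and 21047 of 21063 of replicate 2 had folds that are multiples of 1 step per replicate, and each deposited value stood for 1 fold. Depth is unknown. Each of the 3 lists entered. Series-wide summit offsets matched the stronger replicate within 2 bp in 50.4% of broad peaks, so replicate summits were used.

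Genes and promoters were those of RefSeq tables of GRCm38.p6, the assembly of mm10. A gene start was the start of the model by strand or a listed promoter start. Of 392 list entries 391 matched a symbol and 1 an older symbol. Shares have exact 95% intervals (Clopper-Pearson). The members, lists, motifs and the rule for named genes were chosen with earlier results of these data known. The rule named Atf4, the genes at the 10 widest and 10 strongest members, the up to 3 list members with the widest peaks and the genes with the most broad peaks; the text gives a part of these, and other genes were chosen after their values were seen. Results on some items are not reported here. Placement, overlap and fold recovery were tested on simulated data. Alternatives were other windows, gene models, widths, overlaps and each replicate alone. Software was Python 3.11.15 with SciPy 1.17.1, pandas 2.3.3, NumPy 2.4.6 and, for plots, Matplotlib 3.10.9.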

Additional observations from a re-analysis of the deposited data

How the results depend on the processing

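The share of broad peaks at gene starts was 45.9% and its difference from 300 to 600 bp peaks 31.3 percentage points; the difference stayed positive in every setting run. With the summit in place of the midpoint the share was 39.6% and the difference 25 points, with any overlap 52.4% and 37.1, with a window of 500 bp 32.2% and 19.5, and with a width of 1200 bp or more 41.6% and 27.0. A window of 5 kb gave a share of 58.7% and all gene models 52.0%. Against peaks of 600 to 1000 bp the difference was 17.5 points. Within series-wide folds under 10, of 10 to 15, 15 to 20, 20 to 30 and 30 and over it was 26.4, 41.6, 39.2, 40.03 and 24 points. Settings chosen after seeing the data gave 39.5% and 25.4 points with either end of every gene model and a share of 39.6% with genes of known strand alone. There were 1708 peaks of 1200 bp or more, at the start of 804 genes, and 199 of 2000 bp or more, at 105 genes. Each replicate alone gave 410 to 429 broad peaks, at the start of 220 genes in both lists, against 368 in the series-wide list, and 28 list genes in both, against 40. The cause of these moves was not tested, apart from the wider or narrower rule that each setting builds in. Depth is unknown and limits which weak flanks of a peak reach the caller's threshold. No paired analysis was possible because input samples have no peak lists here and no result compares groups of samples.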
